A study of Mus musculus with 12 samples.

Results

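The genes described here encode the machinery with which the endoplasmic reticulum (ER) takes in, folds, modifies and checks proteins bound for secretion. They were chosen by name, as a list of 40 symbols, and a symbol was kept when its mean over the 12 libraries was at least 1 CPM, for that rule counts scaled to the total of each library. Every other CPM value here is scaled to the library's total over the tested genes times its TMM factor, which evens out differences in RNA composition between libraries. All 40 met that rule, out of 31301 symbols in the table and 12285 that reached the same mean, and all 40 were among the 10861 genes tested. Their mRNA was measured by bulk RNA-seq in mouse bone marrow-derived basophils (BMBAs), which are basophils grown from bone marrow cells in culture. Cells of C57BL/6J WT mice were cultured for 7 days with 0.3 ng/mL IL-3, the main basophil growth factor, or with 1 µg/mL TSLP, an epithelial cytokine that also elicits basophils. From each culture FcεRIαhi CD49blo immature basophils, which the study calls pre-basophils, and FcεRIαlo CD49bhi mature basophils were sorted from CD200R3+ cells. This gave 4 groups of 3 libraries each, named here by cytokine and stage (TSLP mature 1, for example, is library 1 of the mature cells elicited by TSLP). The sources do not say which mice gave which library, so p-values measure the spread between these libraries, and no freshly isolated basophils are part of the comparison.

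Secreted proteins enter the ER during their synthesis, guided by the signal recognition particle and passed through the Sec61 channel, while signal peptidase removes the leader and oligosaccharyltransferase attaches sugar chains. Chaperones led by Hspa5 (BiP) and Hsp90b1 (GRP94), the lectins Calr and Canx, and the protein disulfide isomerases then fold the chain, and misfolded products are sent out for ER-associated degradation. When unfolded chains build up, the sensors Ern1 (IRE1), Eif2ak3 (PERK) and Atf6 start the unfolded protein response, which raises chaperone genes through Xbp1 and Atf6 and, under sustained stress, Ddit3 (CHOP). Basophils store and secrete granule proteases, among them Mcpt8 (mouse mast cell protease 8) and Prss34 (mouse mast cell protease 11), which are themselves made on ER-bound ribosomes. The maturation comparisons asked how this machinery differs between the precursor and the mature cell, and the cytokine comparisons whether it differs between cells elicited by IL-3 and by TSLP.

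Immature basophils carried more mRNA than mature basophils of most ER chaperone genes in both cultures, and of most disulfide isomerase and translocon genes in IL-3 cultures. In IL-3 cultures 28 of the 40 genes were higher in immature cells and 2 were lower, where 22.1% and 24.1% of all 10861 genes tested were higher and lower. In TSLP cultures 19 were higher and 1 was lower, where the shares of all genes were 12.2% and 12.9%. Calr, for example, averaged 1261 ± 37.2 CPM (SD, n = 3 libraries here and below) in immature and 189.7 ± 19.1 CPM in mature cells with IL-3, against 729 ± 4.77 and 267 ± 56.6 CPM with TSLP. The difference between stages was smaller with TSLP for 7 genes, a direction called for 2.04% of all genes, and Ddit3 and the co-chaperone gene Dnajb9 ran the other way in IL-3 cultures.

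Promoter sequence is shown for the genes that hold a known ER stress element, since chaperone genes are the classical carriers of these elements and 10 of the 11 chaperone genes of the set were higher in IL-3 immature cells. The sequences are RefSeq promoters on the build GRCm38.p6, from 250 bases before to 50 bases after the annotated start, and 32 of the 40 genes matched an entry. Hyou1, Manf, Atf6, Sec61a1, Ssr2, Spcs3, Sec11c and Ostc had no entry in that table. The Hspa5 promoter, the best studied of the set, is printed over the 250 bases before its start (chr2:34771840-34772089, plus strand), with the ER stress response element in capitals. The start is the one RefSeq gives, and the GENCODE span of Hspa5 given further on begins upstream of it, so that the element lies before the RefSeq start and inside the GENCODE span.
Hspa5: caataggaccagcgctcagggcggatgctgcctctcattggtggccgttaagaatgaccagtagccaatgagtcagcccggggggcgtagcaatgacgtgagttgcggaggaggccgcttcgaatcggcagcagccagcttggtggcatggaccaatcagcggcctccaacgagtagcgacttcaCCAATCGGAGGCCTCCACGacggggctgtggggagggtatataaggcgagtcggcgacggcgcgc

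The ER stress response element was searched as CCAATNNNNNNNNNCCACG on both strands. It occurred in 8 of the 32 matched genes, or 25.0%, and in 37 of all 27025 genes with a promoter of that length, or 0.137%. The 9 matches follow with 5 flanking bases on each side in lower case, the element in capitals and each match read in the direction of the motif. The position is that of the element itself, and the matches in Calr, Creld2 and the nearer match of Hsp90b1 lie against the direction of the gene.
Hspa5, chr2:34772025-34772043: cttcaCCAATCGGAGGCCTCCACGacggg
Hsp90b1, nearer match, chr10:86705533-86705551: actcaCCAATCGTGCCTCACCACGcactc
Hsp90b1, farther match, chr10:86705638-86705656: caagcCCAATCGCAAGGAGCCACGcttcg
Calr, chr8:84847075-84847093: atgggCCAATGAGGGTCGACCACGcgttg
Canx, chr11:50325800-50325818: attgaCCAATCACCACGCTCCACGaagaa
Dnajc3, chr14:118937827-118937845: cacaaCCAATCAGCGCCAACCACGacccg
Creld2, chr15:88819520-88819538: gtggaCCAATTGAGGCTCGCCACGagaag
Pdia6, chr12:17266491-17266509: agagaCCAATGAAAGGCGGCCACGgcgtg
Syvn1, chr19:6046532-6046550: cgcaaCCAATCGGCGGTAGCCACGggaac

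A second form, ER stress response element II, was searched as ATTGGNCCACG on both strands. It occurred in 2 of the 32 genes, or 6.25%, and in 12 of all 27025 genes, or 0.0444%. The core of the UPR element, TGACGTGG, occurred in 193 of all 27025 genes, or 0.714%, and in 0 of the 32 genes. The windows searched for the 3 motifs are the same, and the first and the second form lay in different genes of the set.
Dnajb11, chr16:22857852-22857862: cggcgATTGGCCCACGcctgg
Herpud1, chr8:94386377-94386387: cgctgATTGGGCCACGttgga

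As a description with no test, 9 of the 10 genes with an element were higher in IL-3 immature than in IL-3 mature cells, with a median log2 fold change of 1.45 over the 10, beside 22.1% higher among all genes tested. The exception was Syvn1, at 0.19. Of the 22 matched genes without an element 13 were higher and 2 lower, with a median of 0.74, and of the 8 with no entry 6 were higher, with a median of 1.03. In TSLP cultures the counts were 7 higher and 1 lower among the 10 genes with an element 8 higher among the 22 without and 4 higher among the 8 with no entry, with medians of 0.90, 0.35 and 0.67, beside 12.2% higher among all genes. A match describes letters in this window, and binding was not measured. Sdf2l1, whose difference between stages exceeded that of every other gene of the set, held none of the 3 motifs in this window.

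The libraries held between 1720065 and 3685285 counts. Ribosomal RNA (Rn45s and Rn18s together) took 30.0 to 33.9% of the counts in TSLP immature libraries and 13.1 to 28.7% in the other 9. Summed basophil markers, 9 of 9 of them tested, stood at 39811 to 43116 CPM with IL-3 and 29505 to 33240 with TSLP in immature libraries, and 15637 to 17589 with IL-3 and 14117 to 16562 with TSLP in mature libraries, and mast cell markers summed to at most 8.90 CPM in any library. Mcpt8 and Prss34 together made up 33533 to 36988 CPM of the IL-3 immature and 5194 to 6692 CPM of the IL-3 mature basophil sums. Of the other basophil markers, Cd200r3, Itga2, Gata2 and Csf2rb were higher in every IL-3 mature than in every IL-3 immature library. Fcer1a and Ms4a2 were lower there, and Il3ra overlapped. Between the TSLP stages Cd200r3, Itga2, Gata2 and Csf2rb were likewise higher and Ms4a2 lower in every mature library, and Il3ra overlapped. Fcer1a also overlapped there, at 1262, 1222 and 1530 CPM in immature and 1779, 871 and 1141 CPM in mature libraries. Itga2 measured 81.5, 89.1 and 88.5 CPM in immature and 96.9, 209 and 199 CPM in mature TSLP libraries. TSLP mature 1 thus had the highest Fcer1a and the lowest Itga2 of its group. The library TSLP mature 1 stood apart, with 791 CPM of 8 neutrophil markers against 41.5 and 47.4 in the other two libraries of its group, and 177 CPM of 8 B lineage and plasma cell markers against 17.2 and 20.1. Plasma cells are rich in ER proteins. The main counts over all 40 genes that lean on the TSLP mature group are therefore given below with and without that library. Counts by role, by promoter class and over the wider lists are given only with it. The part of plasma cells in the result was not tested beyond that. B lineage markers summed to 1.80 to 8.28 CPM in the 6 IL-3 libraries, where Mzb1 was at 0, and to 28.1 to 37.5 in TSLP immature libraries. Short transcripts read low in the TSLP libraries numbered 3: over 464 genes under 700 bases the median log2 deviation from the group mean was -0.53 in TSLP immature 3 and -0.68 in TSLP mature 3, against 0.65 in TSLP mature 1. Whole groups differed as well. Over the same 464 genes the median log2 fold change was -1.03 in TSLP mature over IL-3 mature and -0.68 in TSLP immature over IL-3 immature cells. Between the stages, immature over mature, it was 0.57 with TSLP and 0.08 with IL-3. These shifts with transcript length touch Sec61g (691 bases) and Sec61b (564 bases) most.

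**Figure D1:**
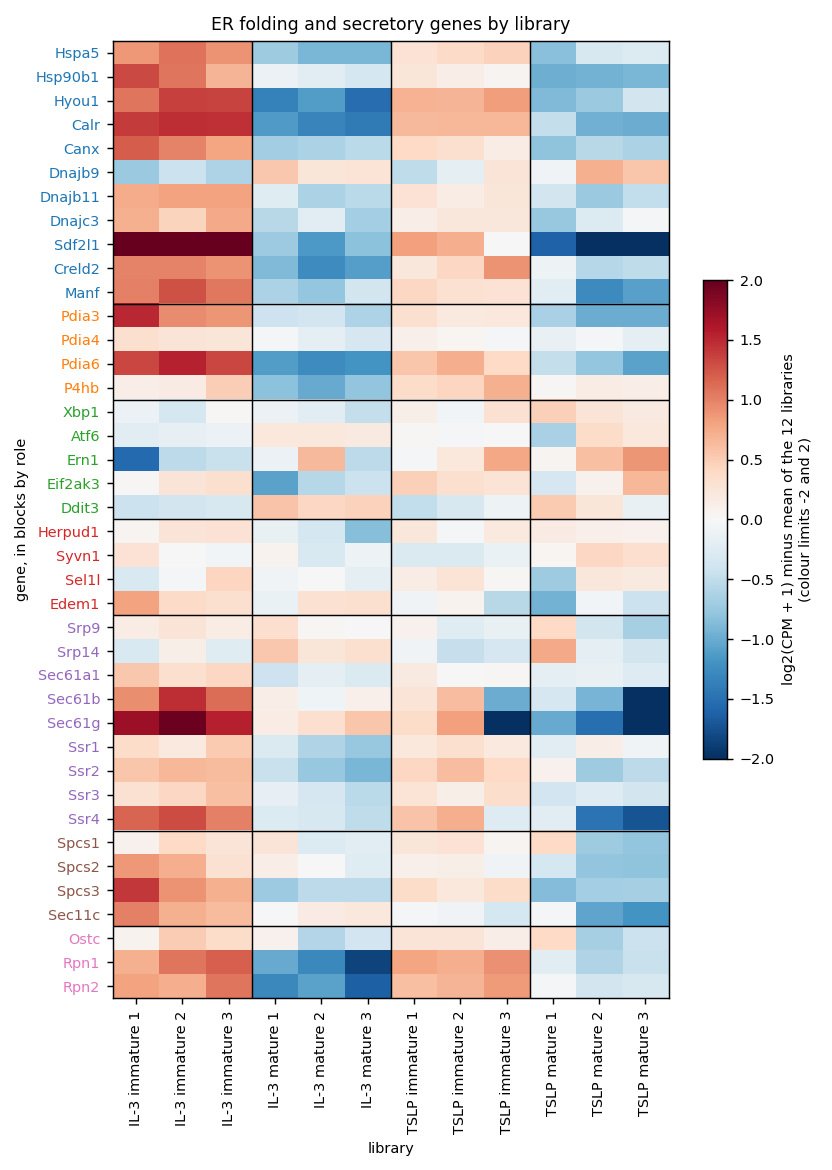
The heatmap plots each of the 40 genes (rows, grouped by role) in each of the 12 libraries (columns, grouped by culture and stage), as log2(CPM + 1) minus that gene's mean over the 12 libraries, with colours limited at -2 and 2. Most chaperone, disulfide isomerase and oligosaccharyltransferase genes are high in the 3 IL-3 immature libraries, where Dnajb9 is low, and the unfolded protein response genes show no such block.

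Levels per kilobase of transcript spanned a wide range within the set. Averaged over the 12 libraries, Hsp90b1 stood at 490 CPM per kb, Calr at 280, Hspa5 at 246 and Pdia3 at 231, whereas the stress sensors Eif2ak3 and Ern1 stood at 4.78 and 2.35. Ern1 was also the least counted gene, with 9 counts in its lowest library.

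Chaperones and co-chaperones form the largest group of the set. In IL-3 cultures 10 of these 11 genes were higher in immature cells and 1 was lower, with a median log2 fold change of 1.71, where the immature side was higher for 22.1% and lower for 24.1% of the 10861 genes tested, and the median of all genes was -0.06. All fold changes below are immature over mature unless stated, positive when higher in immature cells, with adjusted p from edgeR's quasi-likelihood test over all genes. In bulk samples, fewer cells of a type and less RNA per cell cannot be told apart.

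Hspa5 (BiP, the ER Hsp70 that binds unfolded chains and holds the stress sensors inactive, chr2:34771970-34777547 in GRCm38) measured 1033, 1211 and 1054 CPM in immature against 346, 299 and 299.9 CPM in mature libraries with IL-3. With TSLP it measured 697, 744 and 786 CPM in immature and 318, 454 and 468 CPM in mature libraries. The stages did not overlap in either culture, and the 3 TSLP immature values lay below the 3 IL-3 immature values. The log2 fold change was 1.80 ± 0.187 (SE, adjusted p = 1.01e-06) with IL-3 and 0.85 ± 0.183 (adjusted p = 0.00294) with TSLP.

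Hsp90b1 (GRP94, the ER Hsp90, chr10:86690209-86705509) had the highest level of the set. Its values were 3051, 2559 and 1951 CPM (immature) and 1116, 1052 and 956 (mature) in IL-3-elicited and 1432, 1333 and 1268 (immature) and 618, 632 and 648 (mature) in TSLP-elicited libraries. Immature cells were higher in every library of both cultures, by 1.28 ± 0.187 (log2, adjusted p = 3.85e-05) with IL-3 and 1.09 ± 0.186 (adjusted p = 0.00045) with TSLP.

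Sdf2l1, a partner of Dnajb11 and BiP that helps keep unfolded clients from aggregating, showed the widest gap of all 40 genes (chr16:17130138-17132383). It stood at 588, 434 and 412 CPM in immature against 51.3, 38.2 and 48.3 CPM in mature libraries of IL-3 cultures. In TSLP cultures it stood at 152, 142 and 85.1 CPM in immature against 27.2, 17.0 and 16.6 CPM in mature libraries. The groups separated in the order IL-3 immature, TSLP immature, IL-3 mature, TSLP mature with no overlap between neighbours. The log2 fold change was 3.38 ± 0.265 (adjusted p = 4.58e-08) with IL-3, a fitted fold of 10.4, and 2.63 ± 0.265 (adjusted p = 2.4e-06) with TSLP, a fitted fold of 6.20.

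Calr, the soluble lectin chaperone that binds glycoproteins and calcium (chr8:84841850-84846934), measured 1220.1, 1293 and 1270.0 CPM in immature and 211, 185 and 174 CPM in mature libraries with IL-3. With TSLP the values were 724, 734 and 730.3 CPM in immature and 332, 238 and 231 CPM in mature libraries. Its log2 fold change was 2.73 ± 0.189 (adjusted p = 1.24e-08) with IL-3 and 1.45 ± 0.180 (adjusted p = 2.17e-05) with TSLP. The membrane-bound lectin Canx, its partner in the glycoprotein folding cycle, gave 1.63 ± 0.175 and 0.96 ± 0.173. Hyou1 (GRP170, a nucleotide exchange factor of BiP) measured 138, 169 and 169 CPM against 24.9, 29.5 and 22.1 with IL-3, and 106, 105 and 117 CPM against 35.1, 38.6 and 50.5 with TSLP, or 2.63 ± 0.193 and 1.41 ± 0.182 on the log2 scale.

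The remaining co-chaperones that were higher in immature cells of both cultures were Dnajb11, the stress-induced Creld2, and Manf, a secreted ER-stress protein. Their log2 fold changes lay between 1.26 and 2.10 with IL-3 and between 0.76 and 1.12 with TSLP. Dnajc3 (p58IPK, a BiP co-chaperone) was called with IL-3 at 1.12 and not with TSLP, at 0.53 (adjusted p = 0.058). Dnajb9 (ERdj4, which recruits BiP to Ern1) went against the group. It stood at 31.5, 39.7 and 34.4 CPM in immature and 78.7, 63.7 and 64.9 CPM in mature libraries with IL-3, a log2 fold change of -0.97 ± 0.234 (adjusted p = 0.00301), whereas its TSLP values of 37.3, 46.5 and 64.0 CPM in immature and 51.3, 88.2 and 79.1 CPM in mature libraries overlapped (-0.56 ± 0.227, adjusted p = 0.0795).

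All 4 protein disulfide isomerases were higher in IL-3 immature cells, with a median of 1.38, and Pdia3 and Pdia6 were also higher in TSLP immature cells. The shares of all genes tested that were higher in immature cells were 22.1% with IL-3 and 12.2% with TSLP. Pdia6 measured 375, 431 and 375 CPM in immature and 67.0, 60.8 and 63.6 CPM in mature libraries with IL-3, against 216, 243 and 193 and then 106, 85.7 and 69.8 CPM with TSLP. Pdia3 (ERp57), which works with the lectins Calr and Canx, measured 1562, 1053 and 1013 CPM against 410.3, 421 and 356 with IL-3, and 684, 632 and 637 against 352, 275 and 275 with TSLP. Neither gene's stages overlapped in either culture, and the log2 fold changes were 2.62 ± 0.190 and 1.32 ± 0.181 for Pdia6 and 1.61 ± 0.199 and 1.11 ± 0.197 for Pdia3. P4hb, the archetypal disulfide isomerase PDI, was called with IL-3 at 1.15 ± 0.174 and not with TSLP at 0.41 ± 0.170 (adjusted p = 0.0879). Pdia4 was called with IL-3 at 0.46, a call that ended when IL-3 mature 3 was left out (adjusted p = 0.0585).

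**Figure D2:**
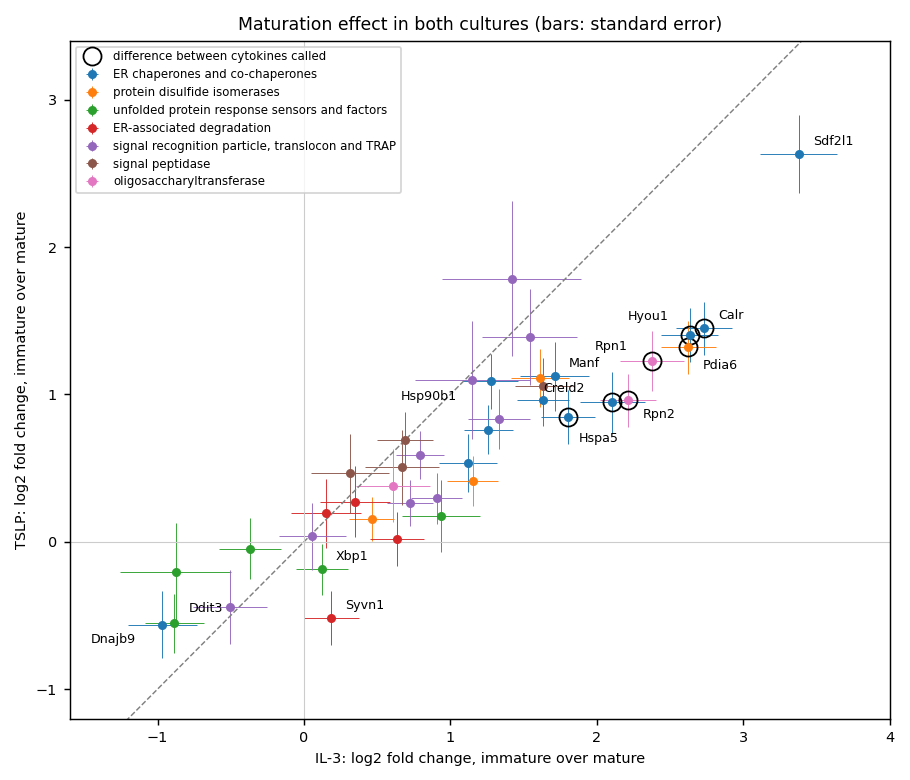
The plot sets the immature over mature log2 fold change in IL-3 cultures (horizontal axis) against that in TSLP cultures (vertical axis) for the 40 genes, coloured by role, with bars for the standard error, black rings around the 7 genes with a called interaction and a dashed line of equal change. Sdf2l1 lies highest of the 40 on both axes (3.38 and 2.63), and Calr, Hyou1, Pdia6, Rpn1 and Rpn2 lie to the IL-3 side of that line.

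Most sensors and transcription factors of the unfolded protein response were not called between the stages. Of these 5 genes 1 was higher and 1 lower in IL-3 immature cells, with a median of -0.37, beside 22.1% and 24.1% of all genes tested. Between the TSLP stages the shares of all genes were 12.2% and 12.9%. Between the TSLP stages 0 of the 5 passed with edgeR, where Ddit3 was the 1 gene with an unadjusted p under 0.05 and DESeq2 called 0. Xbp1, which encodes the transcription factor spliced by Ern1 (chr11:5520659-5525893), measured 153, 129 and 168 CPM in immature and 153, 142 and 119 CPM in mature libraries with IL-3, and 179.8, 159 and 205 CPM against 232, 199 and 188 with TSLP. The stages overlapped in both cultures, at log2 fold changes of 0.12 ± 0.176 and -0.19 ± 0.175. Counts per gene do not separate spliced from unspliced Xbp1 mRNA, and splicing was not measured.

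Ddit3 (CHOP, the stress factor linked to cell death, chr10:127290774-127296288) was lower in IL-3 immature cells. It measured 19.9, 20.9 and 21.5 CPM there and 41.0, 36.4 and 37.9 CPM in IL-3 mature cells, a log2 fold change of -0.88 ± 0.203 (adjusted p = 0.002). The TSLP stages, at 18.9, 21.5 and 25.2 CPM and at 39.4, 32.3 and 24.3 CPM, overlapped (-0.55 ± 0.199, adjusted p = 0.0524). Ddit3 overlaps exons of Mars and Gm4189 on the other strand, and the sources do not say whether counting used the strand. Eif2ak3 (PERK) was the gene of this group that was higher in IL-3 immature cells, at 20.9, 24.6 and 25.8 against 9.26, 13.5 and 14.9 CPM (0.94 ± 0.268, adjusted p = 0.00904), and this call ended without IL-3 mature 1 (adjusted p = 0.0533). Atf6 and Ern1 gave -0.37 and -0.88 with IL-3 and neither was called. The limit of strand is not particular to Ddit3, as 15 genes of the set have exons that overlap a gene of the other strand. The others are Hsp90b1, Dnajb9, Manf, Pdia3, Pdia6, Eif2ak3, Syvn1, Srp9, Sec61a1, Ssr2, Spcs1, Spcs3, Rpn1 and Rpn2.

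Of the 4 degradation genes 1 was higher in IL-3 immature cells and 1 was lower in TSLP immature cells. Among all genes tested 22.1% were higher in IL-3 immature and 12.9% lower in TSLP immature cells. Edem1, which directs misfolded glycoproteins to degradation and was the most abundant of the 4, measured 397, 296 and 281 CPM in immature and 206, 279 and 281 CPM in mature libraries with IL-3, and 215, 236 and 154 against 117, 217 and 167 with TSLP. These ranges overlapped in both cultures (log2 fold changes of 0.35 and 0.27, not called). Herpud1, a stress-induced adaptor of the degradation complex, was higher in IL-3 immature cells, at 53.4, 61.1 and 62.9 against 46.3, 39.7 and 28.0 CPM (0.63 ± 0.187, adjusted p = 0.011). With TSLP it measured 59.8, 50.4 and 58.6 against 57.2, 55.0 and 54.5 CPM and did not separate. Syvn1 (HRD1, the ubiquitin ligase of the complex) was the 1 gene lower in TSLP immature cells, at 25.9, 25.8 and 28.9 against 32.6, 42.6 and 40.3 CPM (-0.52 ± 0.183, adjusted p = 0.0488). That call was lost in 11 of the 12 fits that left out a single library, with adjusted p up to 0.192. Its partner Sel1l was not called in any comparison.

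Most genes of the entry route were higher in IL-3 immature cells. Of the 9 genes of the signal recognition particle, translocon and TRAP complex 7 were higher in IL-3 immature cells (median 0.91), and 4 were higher in TSLP immature cells (median 0.59). The shares of all genes tested were 22.1% and 12.2%. Sec61a1, the pore of the channel, measured 382, 328 and 351 against 196, 232 and 214 CPM with IL-3 (0.72 ± 0.157, adjusted p = 0.00135) and 296, 261 and 267 against 230.4, 237 and 218 CPM with TSLP (0.26 ± 0.156, adjusted p = 0.237). All 4 TRAP subunits, which assist the channel with some leaders, were higher with IL-3, and Ssr2, Ssr3 and Ssr4 also with TSLP. Ssr4 measured 310.5, 343 and 279 against 114, 110.4 and 96.5 CPM with IL-3, while its TSLP values of 204, 229 and 115 and of 119, 49.1 and 40.9 CPM overlapped through TSLP mature 1 and TSLP immature 3. Its log2 fold changes were 1.54 ± 0.326 and 1.39 ± 0.327. The particle's subunit genes Srp9 and Srp14 were not called in either culture.

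The small channel subunits Sec61b and Sec61g have short transcripts. Sec61g measured 128, 153 and 114 CPM in immature and 42.7, 48.4 and 56.8 in mature libraries from IL-3 cultures, and 49.9, 68.4 and 7.83 in immature and 18.6, 12.8 and 4.62 in mature libraries from TSLP cultures. The lowest value of each TSLP group was the library numbered 3. Its log2 fold changes of 1.42 ± 0.476 (adjusted p = 0.0223) and 1.78 ± 0.527 (adjusted p = 0.0204) were 1.28 and 1.47 with a trend on transcript length removed, and the IL-3 call ended without IL-3 immature 2, IL-3 mature 1 or IL-3 mature 2, and the TSLP call without TSLP immature 1, TSLP immature 2, TSLP mature 2 or TSLP mature 3 (adjusted p up to 0.122). Sec61b shares 41.0% and Sec61g 20.5% of their 50-base stretches with other genes, so their counts may be split. The same limit holds at smaller shares for Srp9 (15.5%), Dnajb9 (5.8%), Spcs2 (5.1%) and Hsp90b1 (3.7%). Sec61b was called with IL-3 at 1.15 (adjusted p = 0.0242), a call that ended when IL-3 immature 2 or any IL-3 mature library was left out (adjusted p up to 0.0915).

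Signal peptidase followed the same direction. Spcs3, a subunit needed for the enzyme's activity, measured 730.1, 511 and 449.6 against 164, 189.8 and 190.3 CPM with IL-3, and 354, 315 and 353 against 149, 169.7 and 173 with TSLP, with no overlap (1.63 ± 0.194 and 1.06 ± 0.191). Spcs2 gave 0.69 in both cultures and was called in both. The catalytic subunit Sec11c was called with IL-3 at 0.67 (adjusted p = 0.0407), a call lost in 7 of the 12 single-library leave-outs, and Spcs1 was not called.

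Rpn1 and Rpn2, the ribophorins that anchor oligosaccharyltransferase beside the channel, were among the genes that differed most. Rpn2 (chr2:157279017-157326319) measured 188, 179 and 225 CPM with IL-3 and 164, 172 and 194 with TSLP in immature libraries, and 43.1, 50.3 and 33.8 with IL-3 and 104, 82.6 and 85.8 with TSLP in mature libraries. Rpn1 measured 122, 157 and 170.2 CPM (immature) and 36.3, 29.9 and 19.8 (mature) in IL-3-elicited and 128, 123 and 139.9 (immature) and 63.9, 48.5 and 54.5 (mature) in TSLP-elicited libraries. The immature groups of the 2 cultures overlapped for both genes, and the TSLP mature values all lay above the IL-3 mature values. The log2 fold changes were 2.21 ± 0.191 and 2.38 ± 0.219 with IL-3 and 0.96 ± 0.180 and 1.23 ± 0.206 with TSLP for Rpn2 and Rpn1. Ostc, a further subunit, was not called.

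Over all 40 genes, the TSLP stages gave 19 higher and 1 lower in immature cells, against 12.2% and 12.9% of all genes tested and an all-gene median of -0.03. The median of the 40 was 1.03 with IL-3 and 0.56 with TSLP. The 19 genes higher in TSLP immature cells were all among the 28 that were higher in IL-3 immature cells. The other 9 of the 28 were Dnajc3, Pdia4, P4hb, Eif2ak3, Herpud1, Sec61a1, Sec61b, Ssr1 and Sec11c, and edgeR's test of the difference between cultures did not call any of these 9, although P4hb, Herpud1 and Ssr1 had an unadjusted p under 0.05 there and DESeq2 called P4hb. Without the library TSLP mature 1 the TSLP stages gave 25 higher and 2 lower with a median of 0.91, and the IL-3 stages 29 higher and 4 lower. Calls over all genes changed in that fit as well. Of 11020 genes tested 2095 were higher and 1361 lower between the TSLP stages, and 2859 and 2817 between the IL-3 stages. With every library in, these were 1328 and 1403, and 2404 and 2616, of 10861. Both maturation comparisons also moved with cell division genes, whose 8 of 8 markers were higher in immature cells of both cultures, summing to 1712 to 1813 CPM in immature and 61.3 to 77.6 in mature libraries from IL-3 cultures, and 1236 to 1251 in immature and 175 to 219 in mature libraries from TSLP cultures. The part of cell division in the levels of ER genes was not tested. Summed monocyte and macrophage markers moved the other way, at 25.8 to 39.3 CPM with IL-3 and 106 to 136 with TSLP in immature libraries, and 272 to 376 with IL-3 and 374 to 641 with TSLP in mature libraries, and their part was not tested.

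**Figure D3:**
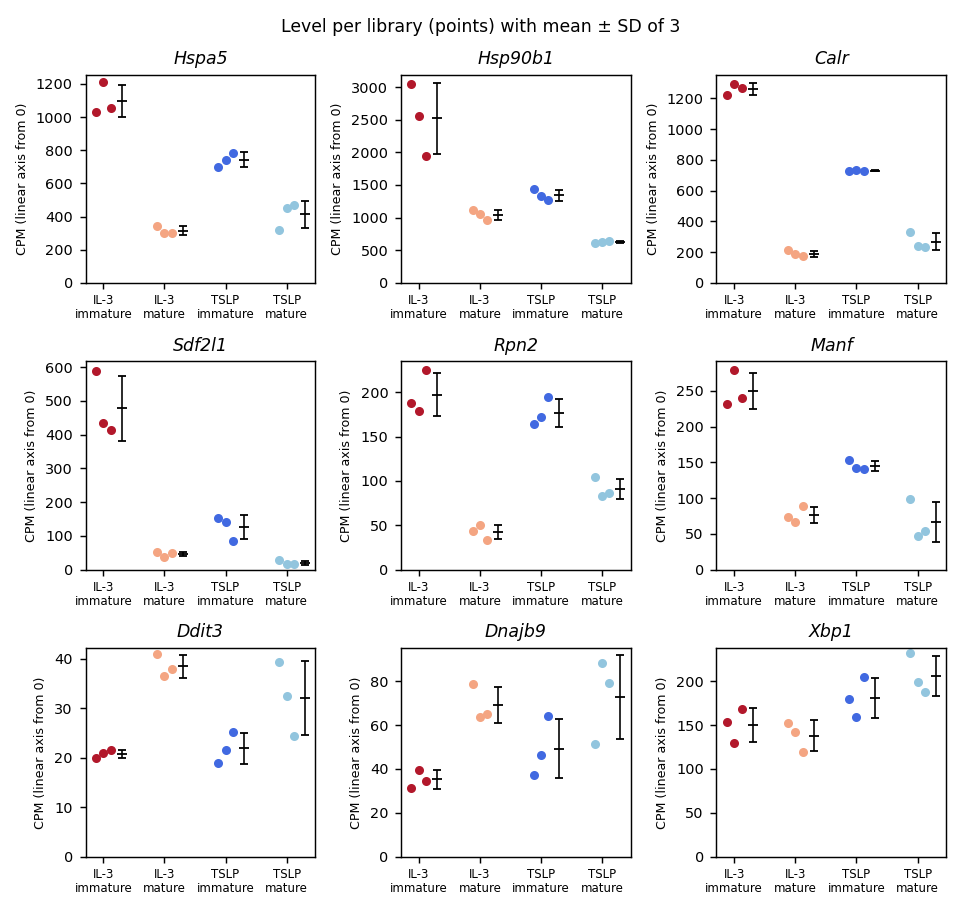
Each panel plots CPM per library (points) with the group mean and SD for Hspa5, Hsp90b1, Calr, Sdf2l1, Rpn2, Manf, Ddit3, Dnajb9 and Xbp1 in the 4 groups. Hspa5 stands at 1033 to 1211 CPM in immature and 299 to 346 in mature libraries with IL-3, Xbp1 overlaps between the stages of each culture, and Ddit3 is higher in IL-3 mature libraries.

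The difference between the stages was itself tested as an interaction, the TSLP log2 fold change minus the IL-3 one. It was negative for 7 genes of the set, Pdia6, Calr, Rpn2, Hyou1, Creld2, Rpn1 and Hspa5, against 2.04% of all genes tested, and positive for 0 genes of the set, against 2.15%. The 0 held with edgeR at an unadjusted p under 0.05 and with DESeq2 as well. Pdia6 gave -1.30 ± 0.255 (adjusted p = 0.00853), Calr -1.28 ± 0.252 (adjusted p = 0.00859), Rpn2 -1.25 ± 0.258 (adjusted p = 0.0108) and Hyou1 -1.23 ± 0.260 (adjusted p = 0.0129). These 4 passed in each of the alternative fits tried. Creld2 (-1.16, adjusted p = 0.0416), Rpn1 (-1.15, adjusted p = 0.0376) and Hspa5 (-0.96, adjusted p = 0.0463) lost the call in 9, 8 and 11 of the 12 single-library leave-outs. The interaction counted 6 negative genes without TSLP mature 1, and 4 without IL-3 immature 2, IL-3 immature 3, IL-3 mature 2, IL-3 mature 3, TSLP immature 1 or TSLP immature 2. Over all genes tested, negative interactions went from 222 to 246 without TSLP mature 1, and to between 89 and 126 in the other fits named.

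For all 7 genes the mean was lower in TSLP immature than in IL-3 immature cells and higher in TSLP mature than in IL-3 mature cells. Calr was 6.64-fold higher in immature cells with IL-3 and 2.73-fold with TSLP. Its TSLP immature mean of 729 CPM lay below the IL-3 immature mean of 1261 CPM, and its TSLP mature mean of 267 CPM above the IL-3 mature mean of 189.7 CPM. Pdia6 had the same order, with means of 394 and 218 CPM in the immature and 63.8 and 87.1 CPM in the mature groups. For Rpn2 the immature means were closer, at 197 ± 24.6 and 177 ± 15.8 CPM, and the mature means were 42.4 ± 8.25 and 90.8 ± 11.6 CPM. The 8 cell division markers, which lie outside the secretory route, also had a negative interaction, with all 8 called.

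At the immature stage, TSLP-elicited cells had less mRNA of the folding genes. Compared with IL-3 immature cells, 13 of the 40 genes were lower and 0 higher, against 5.9% and 7.38% of all genes tested and medians of -0.34 for the set and 0.04 for all genes. With edgeR at an unadjusted p under 0.05, and with DESeq2, 1 gene was higher, Ern1 (1.15 ± 0.368, adjusted p = 0.0501 in edgeR). The 13 were 7 chaperones (Sdf2l1, Hsp90b1, Calr, Manf, Canx, Hspa5, Dnajb11), 2 disulfide isomerases (Pdia3, Pdia6), 3 signal peptidase subunits (Sec11c, Spcs3, Spcs2) and Sec61g. Sdf2l1 fell furthest, by 1.92 ± 0.246 on the log2 scale (adjusted p = 0.000129), from a mean of 478 to 126 CPM. Hsp90b1 was lower by 0.91 ± 0.185 (log2 fold change -0.91, adjusted p = 0.00486), and Pdia3, Pdia6 and Calr gave -0.89, -0.86 and -0.79. These 5 genes were called in every alternative fit.

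Other calls at this stage were less firm. The count of lower genes was 5 when IL-3 immature 1 or TSLP immature 3 was left out, 7 without IL-3 immature 2, TSLP immature 1 or TSLP immature 2, and 18 without TSLP mature 1, a library outside this contrast that enters through the normalization and the shared spread. Lower calls over all genes tested moved too. They were 277, 225, 351, 418 and 452 in the first fits named, in that order, and 1183 of 11020 without TSLP mature 1. With every library in, they were 641 of 10861. Sec11c measured 379, 307 and 292 CPM in IL-3 immature and 183, 178 and 146 in TSLP immature libraries, with no overlap (-0.95 ± 0.255, adjusted p = 0.0226, lost in 5 of 12 leave-outs). Sec61g at -1.65 (adjusted p = 0.0318, lost in 7 of 12) was -1.16 with both TSLP libraries numbered 3 left out. Rpn1, Rpn2 and P4hb were not called at this stage, at -0.20, -0.16 and 0.23.

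At the mature stage, in the fit to all 12 libraries, the shares of the set that differed between cytokines were near those of all genes. In TSLP mature against IL-3 mature cells 8 of the 40 genes were higher and 5 lower, against 12.4% and 11.9% of all genes tested, with medians of 0.05 for the set and 0.09 for all genes. Higher were the oligosaccharyltransferase genes Rpn2 and Rpn1, the isomerase P4hb, the chaperones Creld2 and Hyou1, the stress genes Eif2ak3 and Xbp1, and Herpud1. Lower were Sec61g, Sdf2l1, Sec11c, Hsp90b1 and Spcs2. Rpn2 gave 1.10 ± 0.188 (adjusted p = 0.00114), Rpn1 0.95 ± 0.216 (adjusted p = 0.00607) and P4hb 0.97 ± 0.173 (adjusted p = 0.00137). P4hb measured 178, 157 and 183 CPM in IL-3 mature and 320.0, 349 and 347 in TSLP mature libraries, close to its immature values of 348, 355 and 446 with IL-3 and 409, 426 and 518 with TSLP. Hsp90b1 and Sdf2l1, which were higher with IL-3 at both stages, gave -0.72 ± 0.185 (adjusted p = 0.0114) and -1.17 ± 0.265 (adjusted p = 0.00571).

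Xbp1 was higher in TSLP mature cells by 0.58 ± 0.176 (adjusted p = 0.0258). That call was lost in 6 of 12 leave-outs, among them the one without TSLP mature 1 (0.40, adjusted p = 0.0836). Eif2ak3 was higher by 0.91 ± 0.265 (adjusted p = 0.0208, lost without IL-3 mature 1, IL-3 mature 2 or TSLP mature 3). Hyou1 (0.69) lost its call without IL-3 mature 1, IL-3 mature 3 or TSLP mature 3, and Spcs2 (-0.60) without IL-3 mature 1, IL-3 mature 2, TSLP mature 2 or TSLP mature 3. Creld2 (0.73), Sec11c (-0.79) and Herpud1 (0.54) lost theirs in 5, 5 and 11 of 12 leave-outs, Creld2 also without TSLP mature 1 (0.48, adjusted p = 0.119). Sec61g at -2.02 ± 0.527 (adjusted p = 0.0124) was -1.49 with the length trend removed. Without TSLP mature 1, the library with neutrophil and B lineage markers, 7 genes were higher and 13 lower. Of all 11020 genes tested in that fit 1146 were higher and 1822 lower. The share of the set that was lower exceeded that of all genes there. The count of higher genes was 4 without IL-3 mature 2 or IL-3 mature 3 and 5 without TSLP immature 2 or TSLP mature 3, and the count of lower genes was 3 without IL-3 mature 1, IL-3 mature 2 or TSLP mature 3. Over all genes tested the higher calls in these fits were 635, 696, 1003 and 864, and the lower calls 961, 1023 and 1046. With every library in, they were 1345 and 1289 of 10861.

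**Figure D4:**
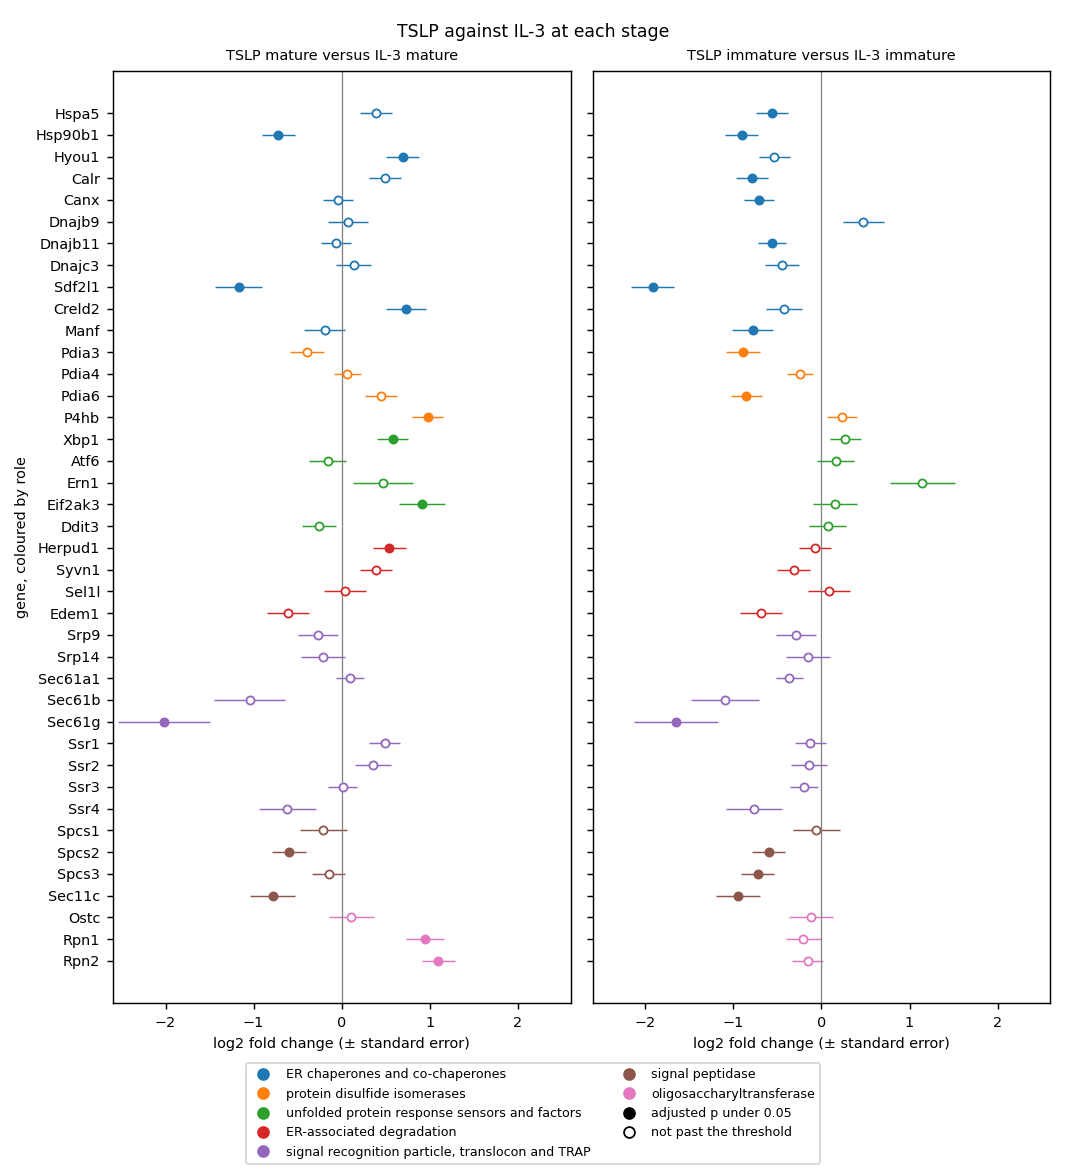
The panels plot the TSLP over IL-3 log2 fold change with its standard error for each of the 40 genes (rows, coloured by role), at the mature stage and at the immature stage, with filled points where the adjusted p was under 0.05. Sdf2l1, Hsp90b1 and Sec61g lie left of 0 in both panels, whereas Rpn2, P4hb and Rpn1 lie near 1 in mature cells (1.10, 0.97 and 0.95) and near 0 in immature cells.

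Other genes of the same route, from a wider list of 87 of which 80 were tested, were also tested. Between the IL-3 stages 31 were higher and 8 lower in immature cells (median 0.26), and between the TSLP stages 13 were higher and 8 lower (median 0.10). All genes tested gave 22.1% higher and 24.1% lower between the IL-3 stages, and 12.2% and 12.9% between the TSLP stages, so the wider list lay near the background with TSLP. Glycan addition and trimming genes had 8 higher of 13 with IL-3, folding and oxidation genes 8 higher and 1 lower of 14, and targeting and translocation genes 5 higher of 10. COPII coat and retrieval genes, which carry cargo between ER and Golgi, had 7 higher and 2 lower of 22, other degradation genes 3 higher and 2 lower of 13, and other unfolded protein response genes 3 lower of 8.

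The genes of the wider list with the greatest difference between the IL-3 stages were Sil1, a nucleotide exchange factor of BiP, Edem3, a mannosidase that marks misfolded glycoproteins, and Fkbp2, an ER prolyl isomerase. Sil1 averaged 23.0 ± 5.23 CPM (immature) and 1.83 ± 0.640 (mature) in IL-3-elicited and 18.5 ± 3.59 (immature) and 7.28 ± 1.96 (mature) in TSLP-elicited cells, and its stage difference was smaller with TSLP by 2.30 on the log2 scale (interaction -2.30 ± 0.473, adjusted p = 0.0108). Edem3 averaged 219.9 ± 12.4, 27.7 ± 4.90, 152 ± 9.37 and 32.0 ± 16.3 CPM in the same order of groups (log2 fold changes of 2.99 and 2.25), and Fkbp2 gave 2.67 and 2.15. Krtcap2, an oligosaccharyltransferase subunit, gave 2.05 with TSLP. Ddost, the subunit that Rpn1 and Rpn2 accompany in that enzyme, averaged 163 ± 11.2, 44.5 ± 4.01, 132 ± 10.6 and 79.9 ± 18.0 CPM and was the only other gene of the wider list with a called interaction (-1.15 ± 0.256, adjusted p = 0.0181).

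Lower in immature cells were Herpud2, a relative of Herpud1, and the membrane-bound transcription factor genes Creb3l2 and Creb3. Herpud2 averaged 18.7 ± 6.57 CPM in immature and 49.5 ± 9.85 in mature cells from IL-3 cultures, and 26.6 ± 2.52 in immature and 52.1 ± 8.96 in mature cells from TSLP cultures (log2 fold changes of -1.37 and -0.97). Creb3l2 gave -1.34 and -0.87 and Creb3 -1.24 with IL-3, and Mcfd2, a cargo receptor subunit, gave -0.72 with TSLP. 

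The level of the 40 genes was set beside the proteases in each library, as the list was chosen with that relation in mind. Mcpt8 (chr14:56082166-56085273) measured 16424, 15574 and 16382 CPM with IL-3 and 9037, 8592 and 8667 with TSLP in immature libraries, and 5775, 4686 and 4510.3 with IL-3 and 4236, 2166 and 2290.4 with TSLP in mature libraries. Prss34 (chr17:25298394-25300165) measured 17108, 21227 and 20606 CPM (immature) and 918, 762 and 684 (mature) in IL-3-elicited and 14513, 14188 and 16521 (immature) and 1499, 961 and 1173 (mature) in TSLP-elicited libraries. Both proteases were higher in immature cells of both cultures with no overlap. Mcpt8 gave log2 fold changes of 1.69 ± 0.243 (adjusted p = 3.2e-05) with IL-3 and 1.60 ± 0.242 (adjusted p = 0.00015) with TSLP, and Prss34 gave 4.64 ± 0.243 (adjusted p = 8.26e-10) and 3.64 ± 0.231 (adjusted p = 3.41e-08).

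The summed CPM of the 40 genes moved in the same direction by less. It was 14460.0, 13289 and 12184 in immature and 5508, 5291 and 5051 in mature libraries from IL-3 cultures, and 8728, 8602 and 8265 in immature and 5202, 4954 and 4792 in mature libraries from TSLP cultures. Immature cells had 2.52 times the mature sum with IL-3 and 1.71 times with TSLP, and leaving out the 3 most abundant genes gave 2.402 and 1.59 times. As a share of a library's counts, without TMM, the 40 genes took 1.37 to 1.73% with IL-3 and 0.723 to 0.842% with TSLP in immature libraries, and 0.470 to 0.530% and 0.433 to 0.540% in mature libraries. The 2 proteases together differed by 6.19 and 5.80 times. Each immature group lay above both mature groups, the IL-3 immature sums lay above the TSLP immature sums by 1.56 times in the mean, and the mature groups of the 2 cultures overlapped. Per protease CPM the ER sum was 0.374 ± 0.0521 with IL-3 and 0.359 ± 0.0268 with TSLP in immature libraries, and 0.922 ± 0.0859 and 1.29 ± 0.348 in mature libraries.

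Between cytokines the proteases and the ER genes did not follow a single pattern. Mcpt8 was lower with TSLP in immature cells (-0.88 ± 0.238, adjusted p = 0.0233, lost in 6 of 12 leave-outs), where 13 ER genes were lower, and Prss34 was not called there (-0.38 ± 0.208, adjusted p = 0.243). In mature cells Mcpt8 was lower (-0.78 ± 0.238, adjusted p = 0.0257) and Prss34 higher with TSLP (0.62 ± 0.210, adjusted p = 0.0413). The mature Mcpt8 call ended without IL-3 mature 1, IL-3 mature 2, TSLP mature 2 or TSLP mature 3 (adjusted p up to 0.0929) and with the length trend removed (-0.38, adjusted p = 0.105), and the Prss34 call was lost in 10 of the 12 leave-outs. The libraries fall into clusters by group, so no correlation across the 12 is given.

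By role, the chaperone sum averaged 7102 CPM with IL-3 and 4073 with TSLP in immature cells, and 2207 with IL-3 and 1964 with TSLP in mature cells. The disulfide isomerase sum averaged 2155, 1462, 755 and 855 CPM in the same order. Sums of the unfolded protein response genes averaged 267, 320, 287 and 358 CPM in the same order. Xbp1 alone made up 150, 181, 138 and 206 CPM of these.

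**Figure D5:**
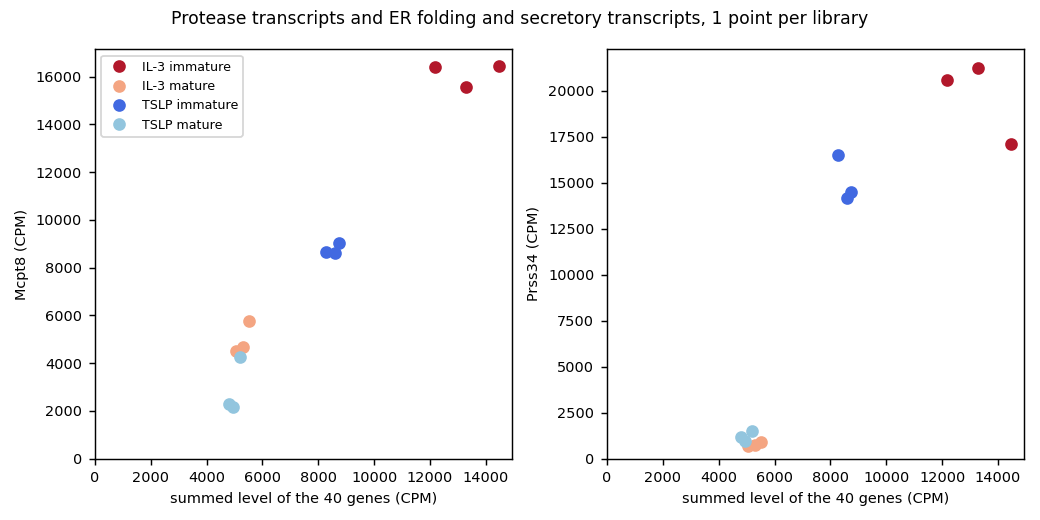
The panels plot the CPM of Mcpt8 and of Prss34 (vertical axes) against the summed CPM of the 40 genes (horizontal axes) in each of the 12 libraries, coloured by group. The TSLP immature libraries (8265 to 8728 CPM of ER genes) lie between the IL-3 immature (12184 to 14460.0) and the mature libraries (4792 to 5508), and the mature libraries lie at the bottom of the Prss34 panel whatever the cytokine.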

How the data were processed

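Poly(A) RNA of sorted basophils was amplified, fragmented and sequenced on an Ion Proton by the authors, who trimmed reads with Cutadapt, mapped them with Bowtie2 to reference RNA (GRCm38 release 101 in the methods, with GRCm39 and mm10 also in the processing notes) and deposited read counts per gene symbol without normalization. How strand and multiply mapped reads were handled is not stated in the sources used, nor any use of molecular identifiers. One unnamed row of the table, 50% of each column, equalled the column total and was left out. Totals ran from 1720065 to 3685285 counts, and the common biological variation was 20.4%. Each library was grouped by its label.

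Genes were kept by filterByExpr (minimum count 10, total 15), scaled by TMM and fitted in edgeR 4.0.16 (R 4.3.3) with 4 group means over 12 libraries. Quasi-likelihood F tests gave p-values adjusted by Benjamini-Hochberg over 10861 genes, with a threshold of 0.05. CPM are per library total over these genes times its TMM factor, or per whole library total in the rule for members and the 10 CPM filter. Alternatives were DESeq2 1.42.0 with its Wald test, its size factors, other filters, a replicate block, each library left out and 2 groups alone. Added after the data were seen were a transcript length trend removed (loess in R), both TSLP libraries numbered 3 left out and others. The main edgeR fit was run on simulated data, which checked the IL-3 stage comparison and the false calls between the TSLP stages. The other comparisons, the alternatives and the promoter search were not checked in that way. The 40 genes, the wider lists and the tests were chosen with earlier results of these data known. Values in every library are given for the most abundant and most changed gene of each role, up to 4 called genes per other comparison, Hspa5, Xbp1, Ddit3 and both proteases. From the wider list, the 3 called genes of at least 10 CPM with the largest change per direction and stage comparison are named, and further names were chosen after values were seen. Replicate libraries differed by more than counting noise. Protein sequences were not used here.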

Additional observations from a re-analysis of the deposited data

Results flagged for a closer look

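For 7 of the 40 genes the difference between immature and mature basophils was smaller with TSLP than with IL-3, by the test of that difference itself (edgeR interaction, log2). The values were -0.96 for Hspa5, -1.23 for Hyou1, -1.28 for Calr, -1.16 for Creld2, -1.30 for Pdia6, -1.15 for Rpn1 and -1.25 for Rpn2. Hspa5, Calr, Creld2 and Pdia6 carry an ER stress response element in the promoter window, Rpn1 and Rpn2 carry none of the elements searched, and Hyou1 had no entry. No group of 4 or more libraries exists, so single outlying libraries were not tested within groups.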

How the results depend on the processing

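No called gene of the 40 changed sign in any alternative. Of the IL-3 stage calls 25 held in each alternative, against 14 TSLP stage calls, 6 and 5 calls between cytokines in mature and immature cells and 4 interaction calls. The 2 genes lower in IL-3 immature cells became 5 with the length trend removed and 2 to 4 with a library left out. The 1 gene lower in TSLP immature cells became 0 with DESeq2 size factors, the DESeq2 Wald test, no filter, a minimum of 10 CPM, Rn45s left out, the replicate block or only the 2 groups compared, 3 with the length trend removed, and 0 to 2 with a library left out. In TSLP mature against IL-3 mature cells the 8 higher genes became 3 with only the 2 groups and 4 to 7 with a library left out, and the 5 lower genes became 3 with only the 2 groups or both TSLP libraries numbered 3 left out, and 3 to 13 with a library left out. In TSLP immature against IL-3 immature cells the 0 higher genes became 1 (Ern1) with the DESeq2 Wald test, no filter, the replicate block, the length trend removed or only the 2 groups, and 0 to 1 with a library left out, and the 13 lower became 8 without both TSLP libraries numbered 3 and 5 to 18 with a library left out. The 7 negative interactions became 9 with the DESeq2 Wald test (Canx and P4hb added), 8 with the length trend removed and 4 to 6 with a library left out. Calls over all genes tested also moved between these fits. With a library left out, lower calls between cytokines were 961 to 1822 in mature and 225 to 1183 in immature cells. Higher calls were 635 to 1146 and 363 to 1060, and negative interactions 89 to 246. The summed level of TSLP immature over mature cells, 1.71 times, was 1.82 with Rn45s left out, 1.59 without the 3 most abundant genes and 1.71 to 1.87 with a library left out. The cause was not tested. Replicate numbers do not pair the samples by the labels, and deviations of same-numbered libraries correlated at -0.08 to 0.39. With the replicate block the calls were 29 higher and 3 lower between IL-3 stages, 21 and 0 between TSLP stages, 9 and 6 in mature and 1 and 17 in immature cells between cytokines, and 7 negative interactions. Over all 10861 genes the block gave 2494 and 2757 between IL-3 stages and 1542 and 1525 between TSLP stages. Between cytokines it gave 1421 and 1432 in mature and 974 and 919 in immature cells, with 270 negative interactions. With 3 libraries per group, genes with few counts such as Ern1 carry wide errors (SE of 0.331 to 0.377 on the log2 scale).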

Other observations

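Genes that carry cargo out of the ER and bring residents back, outside the 40, were compared between cytokines at the mature stage. In TSLP mature against IL-3 mature cells 6 of 22 COPII, cargo receptor and retrieval genes were higher and 1 was lower, with a median log2 fold change of 0.27, against 12.4% higher and 11.9% lower and a median of 0.09 over all genes tested. The KDEL receptors, which return chaperones such as BiP to the ER, split: Kdelr2 rose from 17.5 ± 1.88 to 33.0 ± 6.98 CPM (log2 fold change 0.91 ± 0.219, adjusted p = 0.00794 in edgeR) and Kdelr1 went from 59.0 ± 2.92 to 32.0 ± 8.91 CPM (-0.88 ± 0.190, adjusted p = 0.00428). These genes were chosen after their values were seen.

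Of 8 other unfolded protein response genes, 3 were higher in TSLP immature than in IL-3 immature cells, where 13 of the 40 folding and secretory genes were lower, against 7.38% higher and 5.9% lower among all genes tested. Ppp1r15a (GADD34, which reverses the translation block set by Eif2ak3) measured 62.1, 63.7 and 66.9 CPM in IL-3 immature and 103, 113 and 153 CPM in TSLP immature libraries (0.94 ± 0.174, adjusted p = 0.0026). It was also higher in mature than in immature cells of both cultures, at 156, 157 and 140.3 CPM with IL-3 and 164, 176 and 182 CPM with TSLP (log2 fold change, immature over mature, of -1.23 and -0.50). Atf6b, the paralog of Atf6, was higher with TSLP at both stages (0.76 in immature and 0.69 in mature cells), and Creb3 was higher in TSLP immature cells (0.79).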
